A study of Mus musculus with 6 samples.

Results

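Cadherins and protocadherins are calcium-dependent adhesion proteins of the cell surface. The genes described here are the classical cadherins and the non-clustered protocadherins of the mouse. They were taken from the count tables by name, as every gene called Cdh or Pcdh followed by a number (with x allowed at the end of a protocadherin name). Cdh5, the cadherin of blood vessels, was left out. The rule found 34 of 55471 genes. It also took in some genes that are neither classical cadherins nor delta-protocadherins. These are Cdh13, which is held by a lipid anchor, Cdh16 and Cdh17, which have a longer ectodomain, Cdh26, the tip-link genes Cdh23 and Pcdh15, the endothelial Pcdh12, and Pcdh20.

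RNA-seq counts came from the most rostral telencephalic primordium of mouse embryos at E11.5, with 3 control and 3 Rx-Dicer libraries. Rx-Dicer embryos, the mutants, carried floxed Dicer alleles (Dicer1tm1Bdh/J, kept on C57BL/6) and Rx3-Cre (kept on CD1). Controls had the label WT, while the dissection protocol names them DicerF/F, without Cre. The Rx regulatory sequences drive Cre in the early forebrain and optic vesicle, so a dissected piece can hold cells without recombination. Nothing in the labels says whether a library is 1 embryo or several, so p-values measure only the spread between these libraries.

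Classical cadherins bind the same or a related cadherin on the next cell and link through catenins to actin. In the neuroepithelium, N-cadherin (Cdh2) holds the apical adherens junctions between radial glial progenitors, and type II cadherins mark regions and nuclei of the developing brain. Delta-protocadherins adhere more weakly and signal through their cytoplasmic tails, some of which recruit the WAVE complex that drives actin branching. Dicer cuts miRNA precursors into mature miRNAs, which pair with sites in 3′ UTRs through bases 2 to 8, the seed.

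Mature sequences of 2 miRNA families of the developing brain are shown because their seeds define the words searched for in the 3′ UTRs of these genes. They come from RefSeq (GRCm38.p6), with the seed in capitals. All 8 let-7 miRNAs in the table share the let-7a seed.
let-7a-5p: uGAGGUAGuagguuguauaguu
miR-9-5p: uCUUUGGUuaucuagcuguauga

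The stretches below are the matches of a called gene (Cdh4), of the genes with an 8-base match, and the remaining let-7 match that can be shown. Each is written 5′ to 3′ on the strand of the gene, with the bases that match in capitals. Coordinates (GRCm38) are those of the capitals, from the GENCODE M21 annotation.
Cdh4, miR-9 word, chr2:179898655-179898661, plus strand: ggtctcctgccACCAAAGtgtcagagtaa
Cdh1, miR-9 word, chr8:106669408-106669415, plus strand: ggagtgccaccACCAAAGAcagaggagaga
Pcdh7, miR-9 word, chr5:58129449-58129456, plus strand: aagagggggctACCAAAGAgacaaagcttt
Pcdh17, miR-9 word, chr14:84538598-84538605, plus strand: acatagatatgACCAAAGAtacaattacta
Pcdh19, let-7 word, chrX:133586002-133586009, minus strand: tgtactgaataCTACCTCAtgcaaaatatt
Cdh22, let-7 word, chr2:165111602-165111608, minus strand: gataacagcacCTACCTCgaagatttgag

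Libraries held 34471501 to 48373468 counts on genes, and 3 counts, the smallest number treated as detectable, came to 0.0620 to 0.0870 CPM (counts scaled to the library total). Markers of neural progenitors were abundant in each library, at a summed 3456 to 4136 CPM. Of these 8 markers, DESeq2 called 1 lower, Fabp7 (log2 -0.76, adjusted p = 0.0307), and edgeR called 0. Dicer1 itself stood at 6355, 7070 and 6270 normalised counts in controls against at 4777, 7002 and 4644 in the mutants (log2 difference -0.26, adjusted p = 0.567, DESeq2). Rx-Dicer 2, by its label a mutant, thus reached the range of the controls. The floxed allele loses only part of the gene, so a count over the whole gene is an incomplete check of deletion. Ventral telencephalic markers summed to 317 CPM in control 3 and 472 CPM in the library labelled Rx-Dicer 2, against 126 to 160 CPM in the other 4. Of the 9 markers, only Nkx2-1 did not overlap between genotypes. It had 3.66, 51.9 and 191.6 normalised counts in controls against 681.8, 1882 and 1307 in the mutants (log2 3.97, adjusted p = 0.0549 in DESeq2 and 0.171 in edgeR). Summed markers of the hypothalamus were 34.7 to 44.8 CPM in controls and 57.0 to 69.9 CPM in Rx-Dicer, with 2 of 6 tested called higher and 1 lower by DESeq2. Most of that sum was Fezf1, at 1618, 1276 and 1524 normalised counts in controls against 2043, 2646 and 2620 in the mutants. Besides Fezf1, Otp was called higher and Pomc lower, while Rax and Six6 overlapped between genotypes. Sim1 was not called (log2 0.92, adjusted p = 0.355, DESeq2) but did not overlap. It had 31.76, 17.31 and 22.55 normalised counts in controls against 53.17, 45.85 and 35.17 in the mutants. Summed markers of microglia were 30.4 to 39.1 CPM and 39.0 to 109 CPM, ranges that meet, with 2 of 7 called higher. Over all genes tested, DESeq2 called 1.75% higher and 1.18% lower. edgeR called none of either list, and their part in the values of the cadherins was not tested. For the called members and the others singled out below, values without the library labelled Rx-Dicer 2 are given where it changes a call or a direction.

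Expression of the family was dominated by N-cadherin. Levels were compared between genes as CPM per kilobase of exon (RPKM). Cdh2 stood at 57.5 ± 7.28 RPKM in controls and 51.1 ± 2.35 RPKM in Rx-Dicer (SD, n = 3 each), and made up 33.9 to 43.6% of the summed level of the 34 genes in a library. Behind it came Pcdh18 (mean of 6 libraries 13.3 RPKM), Cdh11 (12.6 RPKM), Cdh24 (12.1 RPKM), Pcdh19 (11.3 RPKM) and Cdh4 (7.48 RPKM). Among the first 14 genes in order of level, neighbours did not overlap over the 6 libraries only at 2 steps, from Cdh2 to Pcdh18 and from Pcdh19 to Cdh4. Cdh4 lay above Cdh6 in 6 of 6 libraries although their ranges met. In all, 17 genes reached 1 RPKM and 8 were under 0.1 RPKM. Cdh16 had no count in any library, which allows up to 0.0870 CPM in the shallowest of them.

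**Figure D1:**
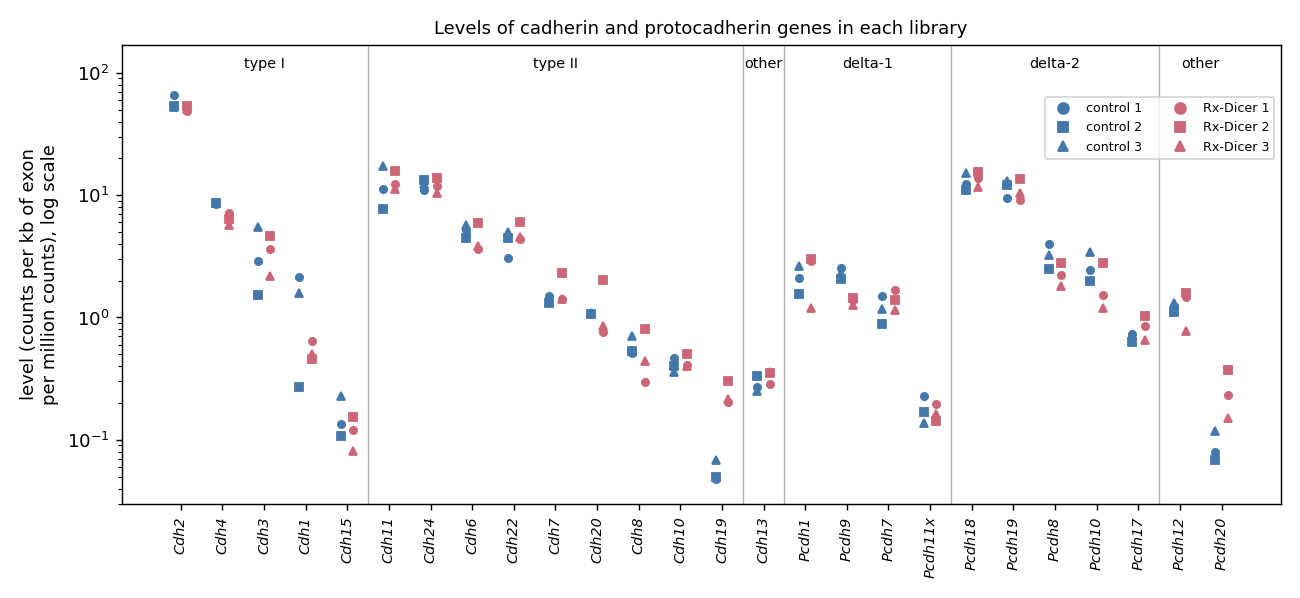
Levels of the genes with a mean of at least 0.1 RPKM, on a log axis, by structural class and in order of mean level within a class. Blue marks are control and red marks Rx-Dicer libraries, with circle, square and triangle for replicates 1, 2 and 3. Cdh2 sits above every other gene, and Cdh4, Pcdh9, Cdh19 and Pcdh20 show blue and red marks that do not overlap.

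The comparison of Rx-Dicer with control asked which adhesion genes of this tissue differ between embryos with and without Cre-driven deletion of Dicer. Pcdh9 and Cdh4 fell in Rx-Dicer and Cdh19 rose, by DESeq2, the tool of the study (adjusted p under 0.05 and a log2 difference over 0.32 in size). No member passed in edgeR's quasi-likelihood test, where the lowest adjusted p among them was 0.0827. DESeq2 called 3 of the 29 members it could test (1 higher and 2 lower), where it called 2.93% of all 17127 genes tested, 1.75% higher and 1.18% lower. edgeR called 0 of 29 members and 0.0446% of 17954 genes. Without adjustment, 6 members had p under 0.05 in either tool, where 13.1% of all genes did in DESeq2 and 12.9% in edgeR. In counts simulated at the depth of these libraries under 3 kinds of spread, the share of wrong calls was above its nominal level in DESeq2. It was lower in edgeR in each simulation, but not near nominal there where genes kept their own estimated spread. The 3 calls thus rest on the more permissive of the 2 tests.

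Differences of the tested members were small on the whole. Signs were mixed, with 16 members above and 13 below zero (11 and 18 without the library labelled Rx-Dicer 2), and 13 of the 29 changed sign under at least 1 processing alternative. The median log2 difference was 0.05, against -0.0009 over all tested genes. The median size of the difference, regardless of sign, was 0.23 for members and 0.16 for all genes. Normalised counts of control and Rx-Dicer did not overlap for 5 of 29 members (17.2%), a share near that of all genes (19.3%). Of these 5, Cdh19 and Pcdh20 were higher, and Pcdh9, Cdh4 and Cdh2 lower, in Rx-Dicer. In bulk tissue, fewer cells of a type and less RNA per cell cannot be told apart.

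**Figure D2:**
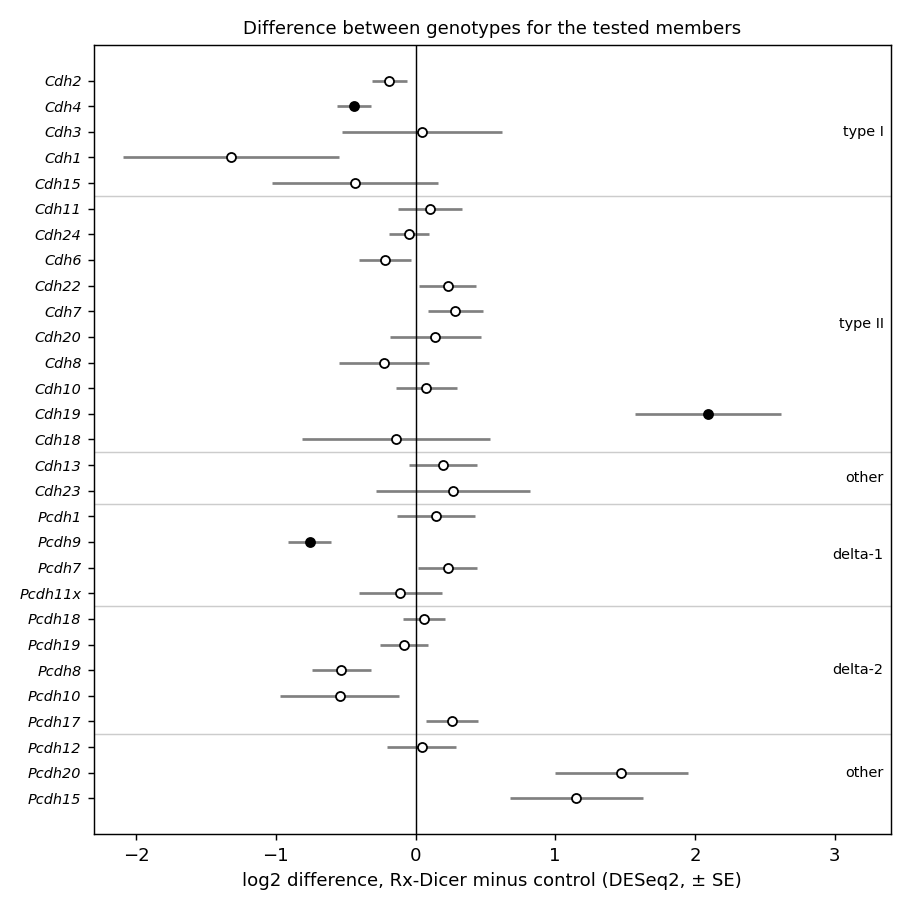
Log2 difference, Rx-Dicer minus control, for the 29 tested members by structural class. Points are DESeq2 estimates, bars their SE, and filled points the 3 called members. Pcdh9 and Cdh4 lie to the left of 0 and Cdh19 at 2.10, while the bars of many others cross 0.

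The type I cadherins among the members were Cdh1, Cdh2, Cdh3, Cdh4 and Cdh15. In controls Cdh2 had 22370, 18740 and 17910 normalised counts, and Rx-Dicer libraries had 16420, 17650 and 17770. The 3 Rx-Dicer values lay just below the lowest control. In RPKM, scaled by library total, the groups overlapped, with 53.68 in Rx-Dicer 2 against 53.58 and 52.99 in controls 2 and 3. The difference was -0.19 ± 0.12 (log2 ± SE), with a 95% interval from -0.43 to 0.06 and an adjusted p of 0.591. The interval does not reach the Pcdh9 estimate given below.

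Cdh4 encodes R-cadherin, a close relative of N-cadherin found in the forebrain and retina. It had 2567, 2734 and 2621 normalised counts in controls against 2134, 1885 and 1806 in the mutants. All 3 controls were above all Rx-Dicer libraries. The fall was 1.36-fold (log2 -0.44 ± 0.12, adjusted p = 0.0168 in DESeq2 and 0.149 in edgeR). On leaving out the library labelled Rx-Dicer 2 the log2 difference was -0.42 (adjusted p = 0.0278), and over the alternatives tried the adjusted p ran from 1.98e-04 to 0.149. The call was lost on leaving out control 2 (adjusted p = 0.102), control 3 (0.0539) or Rx-Dicer 3 (0.0542). Markers of the dorsal telencephalon summed to 1578, 1410 and 998 CPM in controls against 1191, 843 and 1188 CPM in the mutants, sums that overlap. DESeq2 called 2 of 9 markers lower (Pax6 and Eomes), where it called 1.18% of all genes lower. In control 3 the sum was below that of 2 mutant libraries, while Cdh4 was above all of them. Pax6 and Eomes were also above all mutants there. Pax6 had 6726 normalised counts in control 3 against 5064, 4749 and 5629 in the mutants, and Eomes 4111 against 3273, 3120 and 3835. The part of dorsal tissue in the Cdh4 difference was not tested.

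The other type I genes were Cdh1, Cdh3 and Cdh15, the cadherins of epithelia, of basal epithelial and placental cells, and of muscle precursors. Cdh1 was chosen for description after its values were seen. It had 410.4, 54.0 and 301.5 normalised counts in controls against 120.9, 84.6 and 100.8 in Rx-Dicer (log2 -1.32 ± 0.77, adjusted p = 0.496). Controls 1 and 3 were above all Rx-Dicer libraries, and control 2 was below them. Without control 2 it was called lower (log2 -1.80, adjusted p = 5.77e-08). Summed epithelial markers were 67.1, 12.4 and 38.5 CPM in controls against 44.8, 18.4 and 20.6 CPM in the mutants, so control 2 was also the lowest library for these, and their part in the Cdh1 values was not tested. Cdh3 (log2 0.05, and -0.19 without Rx-Dicer 2) and Cdh15 (log2 -0.43) did not pass.

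Type II cadherins pattern the brain by region. Cdh19, known from Schwann cell precursors of the neural crest, was the called member of this class and the one with the lowest expression among the calls. Raw counts were 7, 9 and 13 in controls against 42, 52 and 42 in the mutants, which gave 8.55, 9.17 and 12.2 normalised counts against 36.0, 53.0 and 39.9. The groups were well apart, but the counts behind the control values are few. The rise was 4.27-fold (log2 2.10 ± 0.52, 95% interval 1.07 to 3.12, adjusted p = 0.0063 in DESeq2 and 0.0827 in edgeR). Over the alternatives that gave one, the adjusted p ran from 0.00364 to 0.123. On leaving out the library labelled Rx-Dicer 2 its log2 difference was 1.92 (adjusted p = 0.0339). DESeq2 gave no adjusted p for Cdh19 without Rx-Dicer 1 or without Rx-Dicer 3, where its log2 difference was 2.21 and 2.14.

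Markers of neural crest and glial precursors summed to 48.8, 38.3 and 54.1 CPM in controls against 62.1, 61.2 and 44.8 CPM in the mutants, and 0 of 6 were called by DESeq2 or edgeR. Sox10, the transcription factor that defines these cells, had 179.6, 69.3 and 202.9 normalised counts in controls against 216.1, 25.5 and 260.5 in the mutants. The library labelled Rx-Dicer 2 was the lowest of 6 for Sox10 and the highest for Cdh19.

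The remaining 9 type II genes with a test did not pass. The 2 highest by level, Cdh11 of mesenchymal cells and Cdh24, were close between genotypes. Cdh11 had 4197, 2980 and 6405 normalised counts in controls against 4547, 5711 and 4347 in the mutants (log2 0.10 ± 0.23, 95% interval -0.34 to 0.55). Its spread among controls exceeded the difference, and its sign turned in 3 of 15 alternatives. Mesenchyme markers summed to 1254, 827 and 1856 CPM in controls against 1718, 1384 and 1291 CPM in the mutants. Control 3 was the highest and control 2 the lowest control for both, while among mutants Cdh11 was highest in Rx-Dicer 2 and the markers in Rx-Dicer 1, and their part in the Cdh11 values was not tested. Cdh24 had 1633, 2002 and 1788 normalised counts in controls against 1711, 1955 and 1583 in the mutants (log2 -0.05 ± 0.14, 95% interval -0.32 to 0.23). Cdh6, Cdh22, Cdh7, Cdh20, Cdh8, Cdh10 and Cdh18 had differences from -0.23 to 0.29, while Cdh9 and Cdh12 were too low for an adjusted p.

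Cdh20 and Cdh8 are cadherins of restricted brain regions and were picked after their values were seen. Cdh20 had 179.6, 184.3 and 184.1 normalised counts in controls, and 126.1, 329.1 and 150.2 in Rx-Dicer. Cdh8 had 168.6, 178.2 and 230.1 in controls against 96.1, 251.7 and 147.3 in the mutants. For both, the library labelled Rx-Dicer 2 was above every control and the other 2 Rx-Dicer libraries were below every control. The log2 difference of Cdh20 was 0.14 with that library and -0.40 without it (adjusted p = 0.949 and 0.467), and that of Cdh8 was -0.23 and -0.66 (adjusted p = 0.893 and 0.280).

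**Figure D3:**
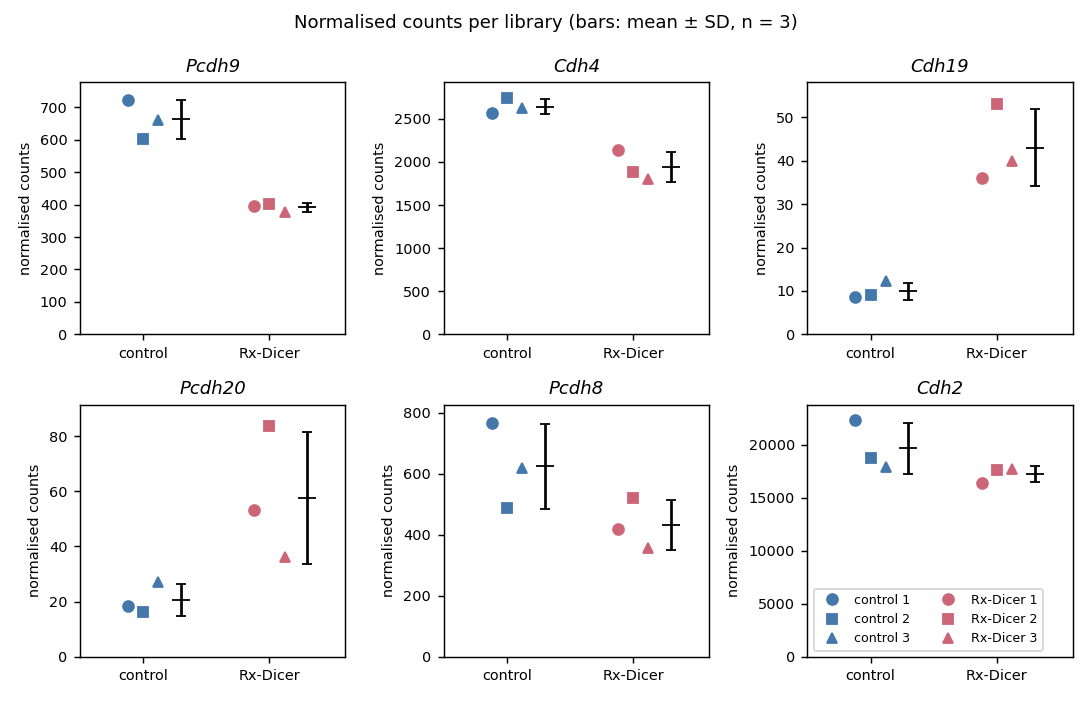
Normalised counts of 6 genes in each library, with mean and SD of 3 beside each group. The called genes Pcdh9 and Cdh4 are lower and Cdh19 higher in all 3 Rx-Dicer libraries, Pcdh20 and Cdh2 also do not overlap without passing the test, and Pcdh8 overlaps.

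Delta-1 protocadherins were Pcdh1, Pcdh7, Pcdh9 and Pcdh11x. Pcdh9, an adhesion gene of cortical and other brain neurons, gave the smallest adjusted p of all members. It had 721.9, 602.9 and 661.3 normalised counts in controls against 394.5, 402.4 and 376.5 in the mutants. All Rx-Dicer values fell well below the lowest control and lay closer together than the controls. The fall was 1.69-fold (log2 -0.76 ± 0.15, 95% interval -1.05 to -0.46, adjusted p = 1.23e-04 in DESeq2 and 0.105 in edgeR). Leaving out any 1 library kept the call, with log2 differences from -0.82 to -0.69. With the library labelled Rx-Dicer 2 left out it was -0.77 (adjusted p = 1.43e-04), and edgeR was the only alternative in which Pcdh9 did not pass. Pcdh1, Pcdh7 and Pcdh11x had log2 differences of 0.15, 0.23 and -0.11 and did not pass. Without Rx-Dicer 2 the sign turned for Pcdh1 (-0.04) and Pcdh11x (0.01).

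Delta-2 protocadherins were Pcdh8, Pcdh10, Pcdh17, Pcdh18 and Pcdh19, and 0 of 5 were called by DESeq2 or edgeR, although Pcdh8 had an unadjusted p of 0.0119 in DESeq2 and 0.0391 in edgeR. Pcdh18 and Pcdh19, mutated in an inherited epilepsy in the case of PCDH19, were the highest protocadherins. Pcdh18 had 2806, 2581 and 3426 normalised counts in controls against 3093, 3385 and 2727 in the mutants (log2 0.06 ± 0.15, 95% interval -0.23 to 0.35). Pcdh19 had 4201, 5542 and 5708 in controls against 3987, 5814 and 4768 in the mutants (log2 -0.08 ± 0.17, 95% interval -0.42 to 0.25). Both overlapped widely.

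Pcdh8 and Pcdh10 were the delta-2 genes with the widest differences and were picked after their values were seen. Pcdh8, the arcadlin gene of synapses and early mesoderm, had 765.8, 486.8 and 619.1 normalised counts in controls against 419.4, 520.6 and 355.5 in the mutants (log2 -0.53 ± 0.21, adjusted p = 0.177), and on leaving out Rx-Dicer 2 its difference was -0.68 (adjusted p = 0.0776). Pcdh10, which recruits the WAVE complex, had 1638, 1374 and 2301 in controls against 1009, 1814 and 824.2 in the mutants (log2 -0.54 ± 0.42, adjusted p = 0.694). For Pcdh10, the library labelled Rx-Dicer 2 lay within the control range and the other 2 below it. Without that library Pcdh10 was called lower (log2 -0.95, adjusted p = 0.00496).

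Of the other protocadherins, Pcdh20 and Pcdh15 had differences above 1 on the log2 scale at low counts, and were picked after their values were seen. Pcdh20 had 18.3, 16.3 and 27.2 normalised counts in controls against 53.2, 83.5 and 36.1 in the mutants (log2 1.47 ± 0.48, adjusted p = 0.0616 in DESeq2 and 0.208 in edgeR). The groups did not overlap. At an adjusted p under 0.1 it would be a further call, 4 of 29 members against 4.32% of all genes. Its highest value was again in the library labelled Rx-Dicer 2, and leaving that out gave an adjusted p of 0.322. Pcdh15, a tip-link gene of hair cells and photoreceptors, had 51.3, 42.8 and 25.4 in controls against 144.9, 39.7 and 78.9 in the mutants (log2 1.15 ± 0.48, adjusted p = 0.206). With the library labelled Rx-Dicer 2 left out it was called higher (log2 1.51, adjusted p = 0.0399). Pcdh12 (log2 0.04, and -0.12 without Rx-Dicer 2) is endothelial. Its lowest value, 203.4 in Rx-Dicer 3, fell in the library with the lowest endothelial marker sum (100.6 CPM, against 173.5 to 236.6 CPM in the others). The part of endothelial cells in the Pcdh12 values was not tested.

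Of the cadherins outside both classical types, Cdh13 and the tip-link gene Cdh23 had log2 differences of 0.20 and 0.27 and did not pass. Cdh17 and Cdh26 were too low for an adjusted p, with at most 13.2 and 2.57 normalised counts in a library. With Cdh9, Cdh12 and Cdh16 they make up the 5 members without a test.

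Variation between libraries of a genotype was shared by many members. For 13 of 29 (44.8%), control 3 was the highest control and the library labelled Rx-Dicer 2 the highest Rx-Dicer library, a pattern picked after the values were seen that held for 12.3% of all 17127 genes. The 13 were Pcdh12, Cdh11, Cdh15, Cdh8, Pcdh18, Cdh6, Cdh19, Pcdh10, Pcdh20, Pcdh19, Pcdh1, Cdh22 and Cdh3. These are the 2 libraries with the highest ventral marker sums. With the ventral marker score as a covariate, added after the data were seen, 5 members were called (Cdh19, Cdh4, Pcdh9, Pcdh10 and Pcdh20), but 860 genes were called in all against 502. The share of ventral tissue in a dissected piece was not measured.

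**Figure D4:**
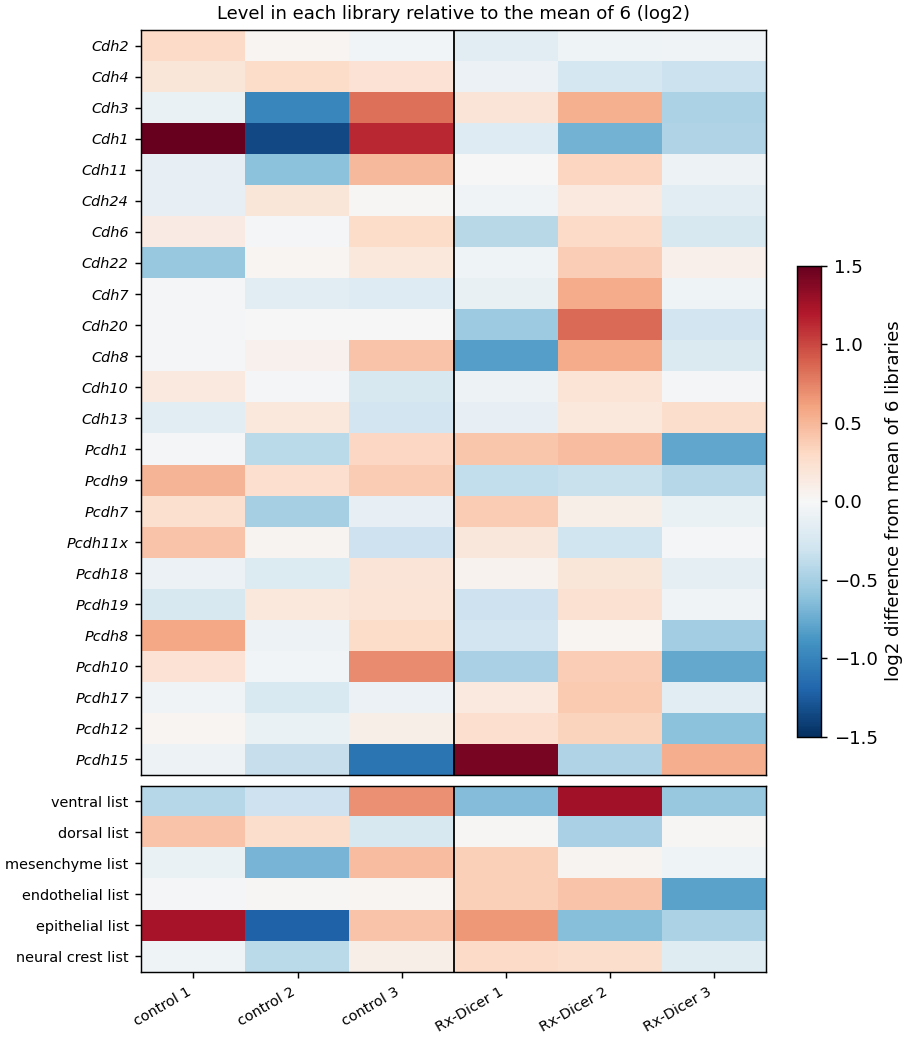
Level of each member with a mean normalised count of at least 50, and the summed level of 6 marker lists below, in each library relative to the mean of the 6 libraries (log2). Colours reach their limit at 1.5 in either direction. Control 3 and the library labelled Rx-Dicer 2 are red for the ventral list and for genes such as Cdh11, Cdh6, Cdh8 and Pcdh10.

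Partners of the cadherins were examined by lists. Of catenins and actin linkers, which tie cadherins to the cytoskeleton, 10 of 11 could be tested and 0 were called by DESeq2 or edgeR (median log2 difference 0.04). Ctnnb1, the beta-catenin gene, had 66920, 67030 and 67380 normalised counts in controls against 62880, 62870 and 64630 in the mutants (log2 -0.08, adjusted p = 0.851). It is named outside the rule for named genes, as the main partner of Cdh2. Of the WAVE complex, DESeq2 called 1 of 9 higher, Wasf2, where it called 1.75% of all genes higher. Wasf2 had 2958, 3029 and 3352 normalised counts in controls against 4506, 3949 and 3964 in the mutants (log2 0.41 ± 0.12, adjusted p = 0.0311 in DESeq2 and 0.158 in edgeR). Wasf2 encodes the widely expressed WAVE subunit, and its call was lost without control 1, control 2 or Rx-Dicer 1.

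Neither tool called any of the 4 nectins, 7 cadherin-processing enzymes, 3 calsyntenins, 7 tested large or seven-pass cadherins, or 2 tested desmosomal cadherins. Clustered protocadherins, the isoforms that give neurons their surface identity, were also not called, at 0 of the 43 that could be tested of 58 (median log2 difference 0.03). Alpha and gamma isoforms share constant exons whose reads belong to several genes and were counted for none, so their counts cover mostly variable exons. Control and Rx-Dicer values did not overlap for 3 of 10 catenins and actin linkers, 3 of 9 WAVE genes, 3 of 7 processing enzymes and 1 of 43 clustered protocadherins, and for none tested of the nectins, calsyntenins, large and seven-pass or desmosomal cadherins, against 19.3% of all genes.

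The 3 called members lie apart in the genome (GRCm38). Cdh19 is at chr1:110888326-110977584, 748 kb from Cdh7, which had a log2 difference of 0.29 and did not pass. Pcdh9 is at chr14:93013410-93890679, with Pcdh20 as its nearest member at 4542 kb, and Cdh4 is at chr2:179442431-179899373.

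All 34 members had an annotated 3′ UTR. The miR-9 word ACCAAAG was found in 9 of the 29 tested members (31.0%), against 14.3% of 14053 tested genes with a 3′ UTR and 18.7% of those with a 3′ UTR of 1096 to 3879 bases, the middle range of the members. Members had longer 3′ UTRs, with a median of 1914 bases against 1217 for all. The 8-base form ACCAAAGA was in 3 members (10.3%, against 4.74% of all genes and 6.15% of those in that length range). The let-7 word CTACCTC was in 3 members (10.3%), Cdh22, Pcdh1 and Pcdh19, against 10.8% of all genes and 13.7% of those in that range. The 8-base CTACCTCA was found only in Pcdh19. Searches were on the strand of the gene, and such a match is a description of the sequence.

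Members with a miR-9 word had a median log2 difference of 0.10 (n = 9, 6 of them above 0) and those without it -0.0023 (n = 20). For let-7 these medians were 0.15 (n = 3) and 0.05 (n = 26). Among the called genes, Cdh4 holds the miR-9 match printed above and was lower in Rx-Dicer, and neither word was found in the annotated 3′ UTRs of Cdh19 and Pcdh9. Pcdh19, with the 8-base let-7 match, differed by -0.08, and Cdh22 by 0.23 with an interval from -0.17 to 0.63.

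**Figure D5:**
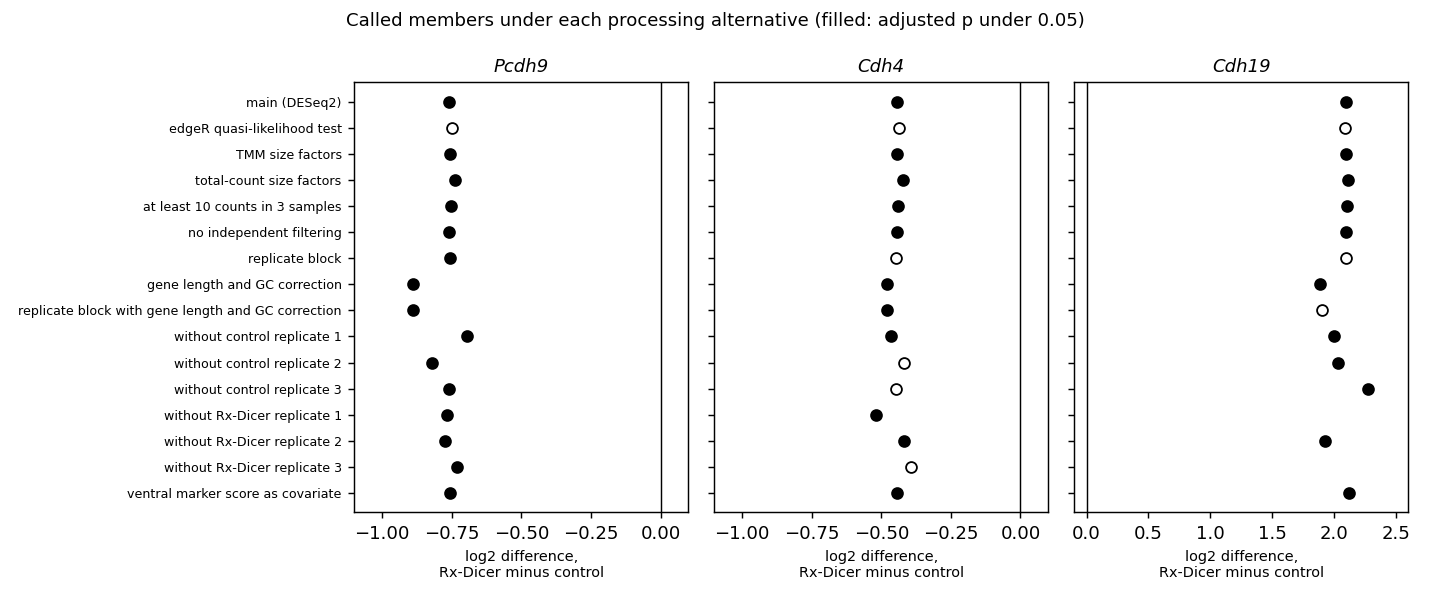
Log2 difference, Rx-Dicer minus control, of Pcdh9, Cdh4 and Cdh19 under each processing alternative, with filled points where the adjusted p was under 0.05. Directions are kept in each row and edgeR is open for all 3 genes. Cdh19 has no point in 2 rows where DESeq2 gave no adjusted p.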

How the data were processed

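RNA-seq was done on 3 control and 3 Rx-Dicer samples. Per the submitters' processing notes and the methods, the authors trimmed reads with Trim Galore 0.6.5, aligned them with HISAT2 to GRCm38.p6 and counted reads per gene with HTSeq 0.12.4 (union mode, reverse strand). Ambiguous and multiply aligned reads count for no gene (24.9 to 31.0% of a library was not counted for a gene), which lowers the counts of genes with close copies. The deposited values were raw read counts. The 2 files of a sample were taken as repeat runs (chi-square per degree of freedom 1.13 to 1.53) and summed.

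DESeq2 1.42.0 (R 4.3.3), the tool of the study, was fitted to all 30928 genes with a count, with genotype as the only term, median-of-ratios size factors, unshrunken fold changes, Benjamini-Hochberg adjustment and independent filtering. A call needed an adjusted p under 0.05 and a log2 difference over 0.32 in size, the minimum fold of the study. edgeR 4.0.16 (quasi-likelihood test, TMM, at least 10 counts in 3 samples) was the first alternative. Both were tested on simulated data with 3 kinds of spread between samples. Changed genes were recovered with the right direction, but DESeq2's share of wrong calls was above nominal in every simulation. edgeR's share was lower in each, near nominal except where genes kept their own estimated spread. DESeq2 remained the main test because the design had been set to follow the study. Intervals are 95% Wald intervals, and the limit for a count of 0 covers counting error only.

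The members and gene lists were chosen with earlier results of these data known. Values per library are given for called members, members with a mean of at least 50 normalised counts, no overlap and a difference over that minimum, and the 6 highest per length. Other named members were chosen after their values were seen. Replicate numbers come from the titles. Samples of the 2 genotypes are different animals, and correlations of same-numbered deviations were 0.17, 0.03 and -0.13, so the numbers were not used as pairs. Alternatives were other scalings, filters and thresholds, a length and GC correction, the replicate block and each library left out. The ventral covariate was added after the data were seen. Sequences are from RefSeq and GENCODE M21, in which 55230 of 55471 identifiers were found. The small RNA libraries were not analysed here.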

Additional observations from a re-analysis of the deposited data

How the results depend on the processing

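Depth and 3 libraries a group limit what can be said of members with few counts, of which Cdh19 is the called one. Pcdh9, Cdh4 and Cdh19 kept their direction under the 15 alternative fits, in 2 of which Cdh19 had no adjusted p, with log2 differences of -0.89 to -0.69, -0.52 to -0.39 and 1.89 to 2.27. The member calls went from 3 to 0 in edgeR (0 higher, 0 lower) and to 5 with the ventral covariate (2 higher), and at an adjusted p under 0.1 the calls with a rise went to 2. Leaving out a library gave 1 to 5 member calls, 0 to 2 higher and 1 to 3 lower. The lowest count, Pcdh9 alone, came without Rx-Dicer 3, and the highest without Rx-Dicer 2, which added Pcdh10 and Pcdh15. Calls over all genes were 8 in edgeR, 322 without independent filtering, 860 with the ventral covariate and 286 to 637 with a library left out, the fewest without control 2 (286) and Rx-Dicer 3 (309), against 502. The causes were not tested.

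The replicate numbers pair no animals, and 2 of 6 samples correlated best with their own number. With the replicate block, 1 member (Pcdh9; 0 higher, 1 lower) and 314 genes were called, and adding the length and GC correction to it left 2 members (0 higher) and 299 genes. The WAVE list went from 1 call to 0 in edgeR and with the replicate block. Leaving out a library gave 0 to 1 calls in the WAVE list, in the catenins (Arvcf, without control 1) and in the processing enzymes (Adam10, without Rx-Dicer 1, and Psenen, without Rx-Dicer 3).

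Over the same alternatives the sign turned for 13 of the 29 tested members, 9 of them without Rx-Dicer 2 and none of them called, with reported differences of at most 0.27 in size. Among the 8 members named by the rule it turned for 4. Pcdh18 was -0.0277 with the length and GC correction and -0.0221 with the block added, and Cdh11 -0.0132 with the correction. With a library left out, Pcdh18 ran from -0.02 to 0.19, Cdh11 from -0.12 to 0.44, Cdh24 from -0.13 to 0.03 and Pcdh19 from -0.23 to 0.04. The reversed values there were -0.0222 and -0.009 for Pcdh18, -0.1225 and -0.0215 for Cdh11, 0.0328 and 0.0189 for Cdh24, and 0.0368 for Pcdh19.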
